A study of Mus musculus with 7 samples.

Results

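The platelet-derived growth factor (PDGF) family was followed in mouse dorsal skin through the 6 genes that encode its 4 ligands, Pdgfa, Pdgfb, Pdgfc and Pdgfd, and its 2 receptors, Pdgfra and Pdgfrb. The members were taken by symbol, 6 of the 55450 genes in the count table, and all 6 passed the filter on low counts. The skin came from 7 wild type male C57BL/6 mice aged 24 months. ABT-263, an inhibitor of anti-apoptotic Bcl-2 family proteins used to remove senescent cells, was applied topically at 5 μM in DMSO for 5 days to 3 mice (numbered 476 to 478), and DMSO alone to 4 mice (480 to 483). Every animal in both groups also had its back clipped, treated with depilatory lotion and cleansed with ethanol, and carried a semi-occlusive dressing. Skin that received neither solution was not analysed here, so each comparison is of ABT-263 in its vehicle against the vehicle. One library of polyA RNA was made per mouse from whole tissue.

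PDGF ligands are secreted dimers that bind receptor tyrosine kinases on mesenchymal cells. PDGF-A and PDGF-C dimers bind mainly the alpha receptor, PDGF-B dimers bind both receptors, and PDGF-D dimers bind mainly the beta receptor. In skin, epithelial cells, platelets, macrophages and endothelial cells are known sources of ligand, whereas fibroblasts carry the alpha receptor and pericytes and smooth muscle cells the beta receptor. The family is known for recruiting pericytes to vessels and for driving fibroblast migration and division during wound repair. The classical ligands A and B are cleaved inside the cell by furin-like convertases, while C and D are secreted with a CUB domain that proteases outside the cell must remove.

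The members lie at separate loci, except that Pdgfa and Pdgfra share a chromosome at a distance. On mm10 (GRCm38), GENCODE places Pdgfa (ENSMUSG00000025856) at chr5:138976014-138997370 on the minus strand, Pdgfb (ENSMUSG00000000489) at chr15:79995874-80014977 on the minus strand, and Pdgfc (ENSMUSG00000028019) at chr3:81036416-81214040 on the plus strand. Pdgfd (ENSMUSG00000032006) spans chr9:6168584-6378850 and Pdgfra (ENSMUSG00000029231) chr5:75152292-75198215, both on the plus strand. An antisense gene, 6330403L08Rik, covers 26.1% of the exon bases of Pdgfa, which the strand-specific counting keeps apart. Antisense genes cover 6.21% of the exon bases of Pdgfra and 2.89% of those of Pdgfc.

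The 3 members whose RNA rose after ABT-263 had promoter windows in the RefSeq table (GRCm38.p6), and the 250 bases before the RefSeq start are shown in plus strand order, which is the direction of transcription for all 3. Capitals mark matches to 5 motifs that were searched on both strands: the GC box GGGCGG, the AP-1 motif TGANTCA, the TATA box TATAAA, the CCAAT box CCAAT, and the CArG box.
Pdgfc, chr3:81036166-81036415: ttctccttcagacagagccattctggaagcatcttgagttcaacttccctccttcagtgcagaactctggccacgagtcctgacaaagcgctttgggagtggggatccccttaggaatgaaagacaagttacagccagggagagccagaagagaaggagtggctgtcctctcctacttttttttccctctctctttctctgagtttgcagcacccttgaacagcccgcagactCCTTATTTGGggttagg
Pdgfd, chr9:6168236-6168485: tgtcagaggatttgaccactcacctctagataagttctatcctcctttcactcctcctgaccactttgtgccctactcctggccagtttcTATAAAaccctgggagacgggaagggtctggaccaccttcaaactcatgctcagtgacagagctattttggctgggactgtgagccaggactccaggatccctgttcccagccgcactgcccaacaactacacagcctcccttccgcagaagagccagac
Pdgfra, chr5:75152001-75152250: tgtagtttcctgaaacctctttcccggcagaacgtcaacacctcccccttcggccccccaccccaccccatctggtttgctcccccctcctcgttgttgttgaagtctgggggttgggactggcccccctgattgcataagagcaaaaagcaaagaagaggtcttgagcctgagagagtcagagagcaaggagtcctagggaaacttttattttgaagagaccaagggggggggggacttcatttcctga

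The 3 windows had no motif in common. The Pdgfc window held a CArG box, the recognition sequence of serum response factor, at bases -17 to -8 from the start. The Pdgfd window held a TATA box at bases -160 to -155. The Pdgfra window held a match to none of the 5 motifs, and its GC content of 54.4% was close to those of Pdgfc (50.8%) and Pdgfd (53.6%). Over 32851 RefSeq windows of the same length, 1.47% held a CArG box, 12.4% TATAAA, 32.7% a GC box, 33.8% CCAAT and 6.75% the AP-1 motif. Pdgfa, the member that fell, had 2 start sites in the table, whose windows were richer in GC (66.4% and 72.4%) and held 1 and 2 GC boxes. Both windows lie within the Pdgfa gene, and 86 and 93 of their bases are in its annotated exons, against 0 in each of the 3 windows above. The GC boxes of the second window, at bases -93 to -88 and -86 to -81, fall among those exon bases. A match is a run of letters and not a measured binding site, and the motifs were chosen after the expression values had been seen.

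Library totals lay between 20344364 and 26824123 counts in DMSO skin and between 27325963 and 43562330 counts in ABT-263 skin, so every ABT-263 library was the larger. The least counted member, Pdgfd, had 17 to 42 counts in DMSO libraries and 104 to 222 in ABT-263 libraries. ABT-263 mouse 476 stood above the other ABT-263 mice in the macrophage markers and the early response genes given further on. In the hair follicle markers, DMSO mouse 481 stood above the other DMSO mice and ABT-263 mouse 478 above the other ABT-263 mice. Levels are given as CPM, counts scaled to the TMM-normalized library size, and fold changes are edgeR estimates on the log2 scale. A gene was called when its Benjamini-Hochberg adjusted p over the 17959 genes tested was under 0.05.

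The family did not move as a block. Of the 6 members, 4 were called, against 24.2% of all genes tested: Pdgfc, Pdgfd and Pdgfra rose (3 of 6, against 12.4% of genes called higher) and Pdgfa fell (1 of 6, against 11.7% called lower). Pdgfb and Pdgfrb did not pass the test. The values of the 2 groups did not overlap for Pdgfa, Pdgfd and Pdgfra, which was also the case for 37.1% of all genes tested (18.7% with ABT-263 higher and 18.4% with ABT-263 lower). The median log2 fold change over the members was 0.90, beside 0.0022 over all genes tested.

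Among the ligands, Pdgfa encodes the A chain, made in skin largely by epithelial cells. It was measured at 96.6, 116, 109.2 and 110.5 CPM in DMSO mice 480 to 483 and at 67.0, 69.1 and 58.8 CPM in ABT-263 mice 476 to 478. All 3 ABT-263 mice lay below all 4 DMSO mice, and the spread within each group was small. The DMSO mean was 108 ± 8.25 CPM (SD, n = 4) and the ABT-263 mean 65.0 ± 5.46 CPM (SD, n = 3). The log2 fold change was -0.74, with an SE of 0.12 and a 95% interval of -1.02 to -0.45 (edgeR, adjusted p = 0.00910). The exact two-sided permutation test on the same values gave p = 0.0286, the smallest that 35 splits of 7 mice allow.

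Pdgfb encodes the B chain, the main ligand for pericyte recruitment. Its levels were 41.5, 35.3, 49.7 and 42.5 CPM in DMSO mice and 35.2, 43.3 and 35.5 CPM in ABT-263 mice. The groups overlapped through most of their range. The log2 fold change was -0.15 with a 95% interval of -0.49 to 0.19 (edgeR, adjusted p = 0.478; exact permutation p = 0.343). The interval thus left room for changes of either sign within those bounds.

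Pdgfc encodes a ligand of the alpha receptor that needs extracellular cleavage. It was measured at 2.50, 4.04, 5.70 and 3.37 CPM in DMSO mice and at 8.80, 5.62 and 11.3 CPM in ABT-263 mice. ABT-263 mouse 477 lay just below DMSO mouse 482, and the other 2 ABT-263 mice lay above all DMSO mice. The DMSO mean of 3.90 ± 1.35 CPM (SD, n = 4) compared with 8.59 ± 2.87 CPM (SD, n = 3) in ABT-263 skin. The log2 fold change was 1.14, with an SE of 0.33 (edgeR, adjusted p = 0.0413), whereas the exact permutation p was 0.0857. The call was the least stable of the 4: it passed in only 2 of the 7 fits that left out 1 mouse, and was lost without DMSO mouse 480, 481 or 483 (adjusted p = 0.0672, 0.0792 and 0.0981) and without ABT-263 mouse 476 or 478 (0.0909 and 0.143), with a log2 fold change of 0.89 without mouse 478.

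Pdgfd encodes the corresponding ligand of the beta receptor and was the lowest of the family in counts. DMSO mice had 0.696, 1.77, 1.08 and 1.03 CPM, and ABT-263 mice had 4.15, 2.62 and 4.77 CPM. No ABT-263 mouse fell within the DMSO range, and the lowest of them was mouse 477, as for Pdgfc. Means were 1.14 ± 0.451 CPM (SD, n = 4) in DMSO skin and 3.85 ± 1.11 CPM (SD, n = 3) in ABT-263 skin, a 3.36-fold change on the fitted scale (log2 1.75, SE 0.37, 95% interval 0.90 to 2.59, edgeR adjusted p = 0.0160, exact permutation p = 0.0286). Without DMSO mouse 482 or ABT-263 mouse 478 the adjusted p was 0.0502 and 0.0591, at log2 fold changes of 1.72 and 1.57.

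**Figure D1:**
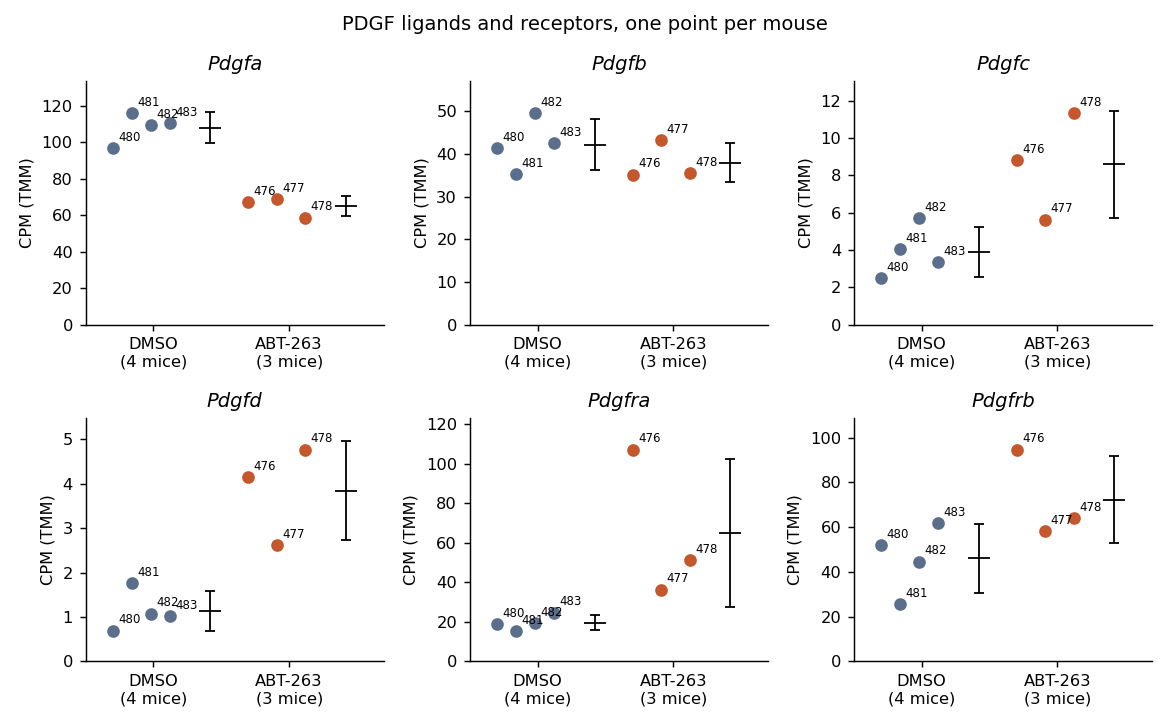
Normalised expression of the 6 family members, in CPM on a linear axis from 0, with 1 point per mouse labelled by its number and the group mean ± SD as a bar to the right of the points. The ABT-263 points lie wholly below the DMSO points for Pdgfa, wholly above them for Pdgfd and Pdgfra, and overlap them for Pdgfb, Pdgfc and Pdgfrb.

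Of the receptors, Pdgfra encodes the alpha receptor, a marker of fibroblasts and other mesenchymal cells. Its levels were 19.1, 15.4, 19.3 and 24.7 CPM in DMSO mice and 107, 36.3 and 51.2 CPM in ABT-263 mice. The 3 ABT-263 mice lay above all DMSO mice, and mouse 476 was far above the other 2. The log2 fold change was 1.72 with an SE of 0.35 and a 95% interval of 0.91 to 2.54 (edgeR, adjusted p = 0.0156; exact permutation p = 0.0286). Without mouse 476 it was 1.16 (edgeR, adjusted p = 0.0204), and the call held in all 7 fits that left out 1 mouse.

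Pdgfrb (ENSMUSG00000024620, chr18:61045150-61085061, plus strand) encodes the beta receptor, carried by pericytes, smooth muscle cells and also dermal fibroblasts. DMSO mice had 52.2, 25.5, 44.7 and 61.8 CPM and ABT-263 mice had 94.7, 58.4 and 64.0 CPM. DMSO mouse 483 lay between the lower pair of ABT-263 mice, so the groups overlapped. The log2 fold change of 0.65 (SE 0.30) carried a 95% interval of -0.03 to 1.34 (edgeR, adjusted p = 0.141; exact permutation p = 0.114). Pdgfrb passed the test in none of the fits that left out 1 mouse. It was not called by the DESeq2 Wald test either (log2 fold change 0.67, adjusted p = 0.128).

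**Figure D2:**
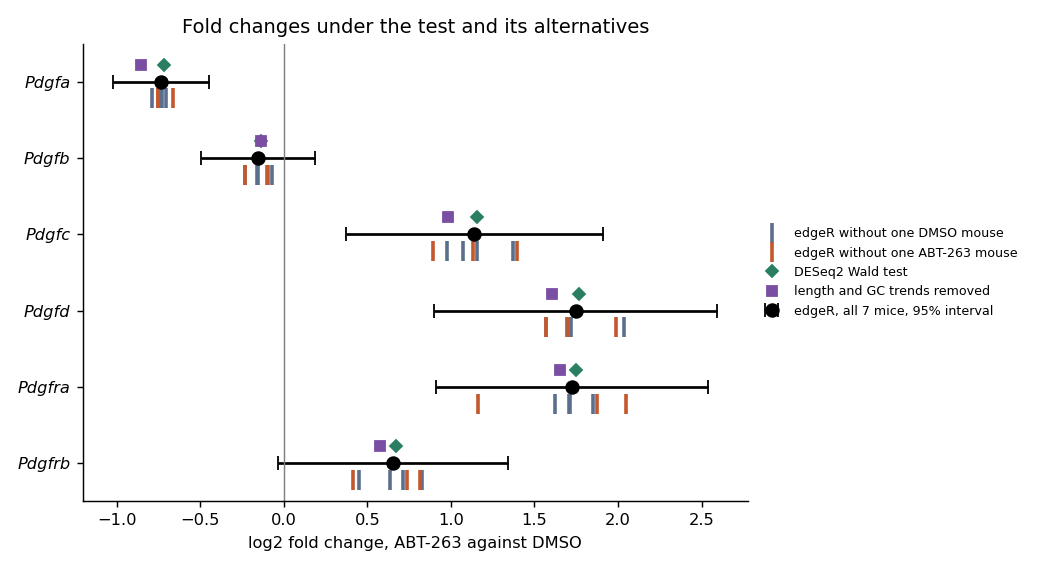
Log2 fold change of each member, ABT-263 against DMSO. The black point is the edgeR estimate on all 7 mice with its 95% interval, the ticks below it are fits that leave out 1 mouse of either group, the diamond is the DESeq2 Wald estimate and the square the estimate with the trends of exon length and GC content removed. Only the intervals of Pdgfb and Pdgfrb include 0, and the fit without mouse 476 gave the lowest Pdgfra value (1.16).

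To compare members with each other, counts were divided by exon length (RPKM, CPM per kilobase, with the union of GENCODE M21 exons as length, which may differ from the annotation the reads were counted on). On this scale Pdgfa was the most abundant ligand in every mouse, with 34.7 ± 2.64 RPKM in DMSO skin and 20.8 ± 1.75 RPKM in ABT-263 skin. Pdgfb followed with 10.1 ± 1.42 and 9.13 ± 1.10 RPKM. Pdgfc reached 0.767 ± 0.266 and 1.69 ± 0.563 RPKM, and Pdgfd 0.362 ± 0.143 and 1.22 ± 0.350 RPKM (SD, n = 4 and n = 3 throughout). The gap between Pdgfa and Pdgfb exceeded the spread in both groups. Pdgfc exceeded Pdgfd in every mouse, by 0.39 to 0.56 on the log2 scale within the ABT-263 libraries. The summed ligand RPKM was 41.6 to 48.4 in DMSO mice and 31.1 to 34.5 in ABT-263 mice, without overlap, with the classical ligands making up most of it in every mouse.

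Within that sum the composition differed between the groups. The share of Pdgfa was 72.3% to 79.1% in DMSO mice and 60.6% to 65.1% in ABT-263 mice. The share of Pdgfb was 18.0% to 24.7% and 25.6% to 30.2%, so a ligand whose own level did not pass the test made up more of a smaller total in each ABT-263 mouse. The protease-activated ligands stayed minor: Pdgfc accounted for 1.18% to 2.31% of ligand RPKM in DMSO mice and 3.20% to 7.17% in ABT-263 mice, and Pdgfd for 0.530% to 1.19% and 2.41% to 4.86%. None of these 4 ranges overlapped between the groups, but the shares are parts of 1 whole in each mouse and so are not 4 separate results. In CPM, Pdgfb and Pdgfc overlapped between the groups. Over all genes tested, 37.1% did not overlap in CPM.

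Pdgfrb was the more abundant receptor in all 7 mice. It was measured at 8.40 ± 2.81 RPKM in DMSO skin and 13.2 ± 3.58 RPKM in ABT-263 skin, against 1.96 ± 0.383 and 6.47 ± 3.73 RPKM for Pdgfra. The share of Pdgfra in the receptor sum was 16.6% to 24.8% in DMSO mice and 25.4% to 38.2% in ABT-263 mice, with DMSO mouse 481 and ABT-263 mouse 477 next to each other at the boundary. The summed receptor RPKM was 6.19 to 13.7 and 14.3 to 28.0.

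**Figure D3:**
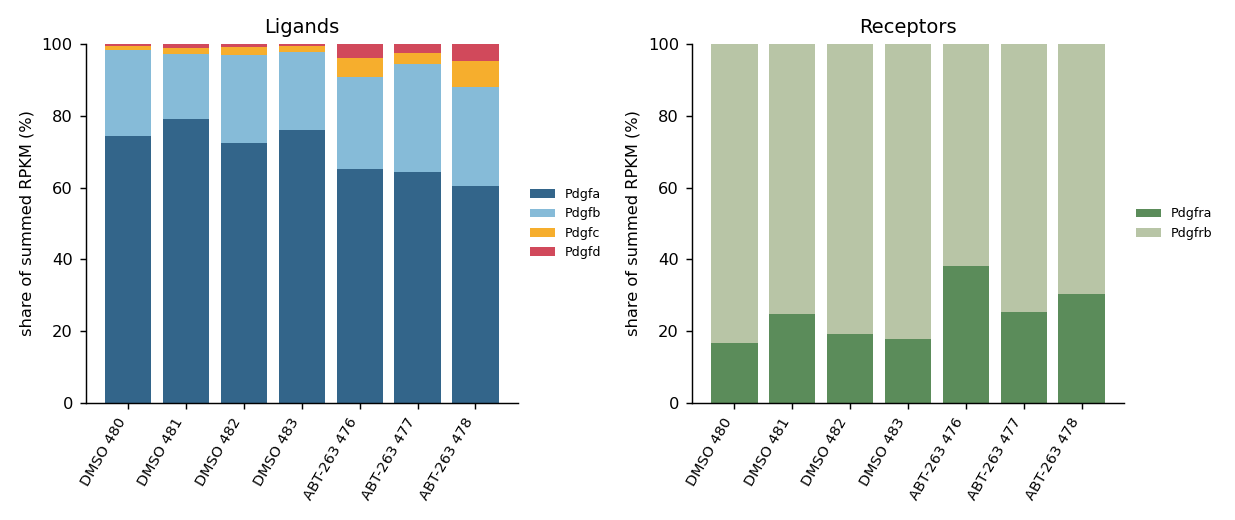
Share of each ligand in the summed RPKM of the 4 ligands (left) and of each receptor in the summed RPKM of the 2 receptors (right), in percent, with 1 stacked bar per mouse. Pdgfa takes 60.6% to 65.1% of the ligand bar in ABT-263 mice and 72.3% to 79.1% in DMSO mice, and Pdgfra takes its largest share, 38.2%, in ABT-263 mouse 476.

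The balance between members was tested as the log2 ratio of their length-scaled levels within each library, over 7 ratios, with exact permutation tests. The ratio of Pdgfa to its receptor Pdgfra lay between 3.84 and 4.596 in DMSO mice and between 1.01 and 2.61 in ABT-263 mice, a difference of -2.33. This was the largest shift among the 7 and the groups were well apart, but with 35 splits the exact p of 0.0286 became 0.1 after adjustment. The ratio of Pdgfa to Pdgfb differed by -0.59 (exact p = 0.0286, adjusted p = 0.1) and that of Pdgfra to Pdgfrb by 0.90 (exact p = 0.0571, adjusted p = 0.133).

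The other 4 ratios gave raw exact p-values between 0.0857 and 0.429. Pdgfc relative to Pdgfd, the protease-activated pair, differed by -0.62 (exact p = 0.0857, adjusted p = 0.15). Pdgfc relative to its receptor Pdgfra differed by -0.45 (exact p = 0.429, adjusted p = 0.429), and the range over fits that left out 1 mouse was -0.78 to -0.06. Pdgfb relative to Pdgfrb differed by -0.84 (exact p = 0.114, adjusted p = 0.16) and Pdgfd relative to Pdgfrb by 1.07 (exact p = 0.171, adjusted p = 0.2). No ratio passed 0.05 after adjustment, which a design with a smallest p of 0.0286 can reach over 7 ratios only if most of them give that p.

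Proteins that activate PDGF ligands or bind them outside the cell were examined as a list of 10 genes. Of these, 6 rose, where 12.4% of all genes tested were called higher, and the other 4 did not pass the test, with a median log2 fold change of 0.84. Pcsk5, a furin-like convertase, was measured at 7.77, 5.81, 6.47 and 13.8 CPM in DMSO mice and at 71.6, 26.1 and 26.2 CPM in ABT-263 mice (log2 fold change 2.28, SE 0.45, edgeR adjusted p = 0.0143). Mouse 476 was the highest, and the call held in every fit that left out 1 mouse. For Furin itself, the main convertase for the A and B chains, the log2 fold change was 0.41 (edgeR, adjusted p = 0.212).

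Among the extracellular activators of the C and D ligands on the list, Plat and Plau were called higher and St14 was not. Plat encodes tissue plasminogen activator, which cleaves PDGF-C, and had 12.03, 9.27, 10.4 and 12.3 CPM in DMSO mice and 20.3, 22.8 and 33.1 CPM in ABT-263 mice (log2 fold change 1.20, SE 0.20, edgeR adjusted p = 0.00877). Plau encodes urokinase, which cleaves PDGF-D, and had 53.1, 37.8, 45.1 and 34.8 CPM in DMSO mice and 74.1, 85.7 and 64.6 CPM in ABT-263 mice (log2 fold change 0.81, edgeR adjusted p = 0.0171). Neither gene overlapped between groups, and both calls held in all 7 fits that left out 1 mouse. St14, encoding matriptase, another protease known to process PDGF-D, showed a log2 fold change of -0.30 (edgeR, adjusted p = 0.390).

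Among the remaining members of the list, Lrp1, a co-receptor of Pdgfrb, rose by 1.05 on the log2 scale (edgeR, adjusted p = 0.0222). Sparc, a matrix protein that binds PDGF-B, rose by 0.87 (edgeR, adjusted p = 0.0255), and the convertase gene Pcsk7 by 0.68 (edgeR, adjusted p = 0.0309). These 3 calls were less stable, passing in 4, 2 and 2 of the 7 fits that left out 1 mouse. Nrp1, a co-receptor, showed a log2 fold change of 0.07 (edgeR, adjusted p = 0.866). The list had 3 calls without DMSO mouse 482, 3 without ABT-263 mouse 476 and 3 without ABT-263 mouse 478.

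Downstream of the receptors, 33 genes for adaptors, kinases and transcription factors had a median log2 fold change of 0.18, or 0.05 without ABT-263 mouse 476. Of these, 8 were called higher and 3 lower, against 12.4% and 11.7% of all genes tested. The 3 highest-ranked rises were in Map2k1, which encodes MEK1 (log2 fold change 1.38, edgeR adjusted p = 0.00602), Akt1 (1.11, adjusted p = 0.00733) and the Src family kinase gene Fyn (0.72, adjusted p = 0.00941). Those that fell included Pik3ca, the catalytic subunit of PI3-kinase (-0.80, adjusted p = 0.00713), and Nras (-0.64, adjusted p = 0.0352). Map2k1, Akt1, Fyn and Pik3ca passed in all 7 fits that left out 1 mouse, and Nras in 1. Calls on the list numbered 5 without DMSO mouse 482, 6 without DMSO mouse 483, 7 without ABT-263 mouse 476 and 5 without ABT-263 mouse 478.

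The list of receptor brakes, phosphatases, ubiquitin ligases and feedback inhibitors, held 14 genes, of which 5 rose against 12.4% of all genes tested, with a median of 0.42. The phosphatase genes led: Ptprj, a density-enhanced phosphatase, had 4.93 to 9.04 CPM in DMSO mice and 14.9 to 26.5 CPM in ABT-263 mice (log2 fold change 1.51, edgeR adjusted p = 0.0101). Ptpn12 had 18.2 to 23.1 and 33.6 to 61.4 CPM (1.17, adjusted p = 0.00991). Neither gene overlapped between the groups, and both calls held in all 7 fits that left out 1 mouse. Without DMSO mouse 481 the list had 3 calls, and without DMSO mouse 482 or 483 or ABT-263 mouse 476 or 478 it had 2 each.

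Genes known to respond early to PDGF in cultured fibroblasts numbered 14. Of these 8 rose (12.4% of all genes tested were called higher), with a median log2 fold change of 1.25, or 0.65 without ABT-263 mouse 476. Fos was measured at 6.06, 9.69, 5.54 and 6.74 CPM in DMSO mice and 66.7, 23.2 and 28.1 CPM in ABT-263 mice (2.49, edgeR adjusted p = 0.00807). Jun had 83.5 to 108 CPM in DMSO mice and 148 to 165 CPM in ABT-263 mice (0.67, adjusted p = 0.0132), and Myc had 21.1 to 25.7 and 31.8 to 39.3 CPM (0.62, adjusted p = 0.0162). Fos and Jun held in all 7 fits that left out 1 mouse and Myc in 5. These genes respond to many other stimuli as well, and the part of PDGF in their levels was not tested.

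Mouse 476 weighed on this list. The largest fold changes were those of Cxcl1, Ptgs2 and Plaur, which lie outside the naming rule and are given because that mouse set their size: without it their log2 fold changes went from 5.27 to 1.90, from 4.09 to 2.14 and from 3.11 to 1.25. The list had 3 calls without mouse 476, 4 without DMSO mouse 480, 4 without 481, 2 without 482, 3 without 483 and 5 without ABT-263 mouse 478.

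The closest relatives of the PDGF receptors, the other type III receptor tyrosine kinases and their ligands, gave 7 tested genes, of which 2 rose, a share of calls near the 24.2% over all genes tested. Csf1r, the macrophage receptor encoded next to Pdgfrb, had 72.1, 35.8, 71.2 and 59.8 CPM in DMSO mice and 264, 115 and 147 CPM in ABT-263 mice (log2 fold change 1.55, edgeR adjusted p = 0.0176), and its ligand gene Csf1 rose by 0.96 (edgeR, adjusted p = 0.0118). Csf1 held in all 7 fits that left out 1 mouse and Csf1r in 6. Kit, the stem cell factor receptor, showed a log2 fold change of 0.30 (adjusted p = 0.602), Flt3 0.68 (0.274), Kitl 0.32 (0.260), Flt3l -0.58 (0.105) and Il34, another Csf1r ligand, -0.83 (0.0568).

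**Figure D4:**
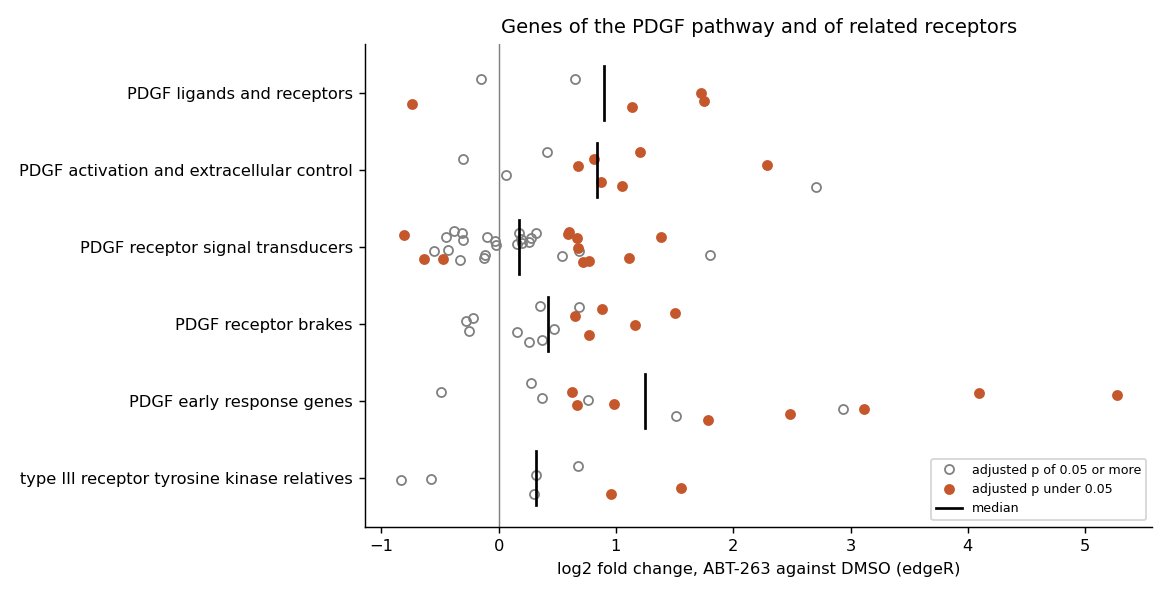
Log2 fold change of every tested gene in the 6 lists (edgeR, ABT-263 against DMSO), with filled points for adjusted p under 0.05 and a black line at each list's median. The medians of the ligands and receptors (0.90), the activation list (0.84) and the early response list (1.25) lie to the right of 0, and the only filled points left of 0 are Pdgfa and the 3 signal transducers that fell.

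Bulk tissue does not separate fewer cells of a type from less RNA per cell, so marker genes of the cell types that make or receive PDGF are set beside the members. Marker genes fall outside the naming rule, and those named here were chosen after their values were seen. Fibroblast markers had 3 of 10 higher (Col1a2, Col3a1 and Lum), a median log2 fold change of 0.61, and a summed level of 4562 to 6635 CPM in DMSO mice and 9071 to 14712 CPM in ABT-263 mice. Endothelial markers had 7 of 8 higher, a median of 1.04, and sums of 187 to 425 and 585 to 727 CPM. Macrophage markers had 6 of 8 higher, a median of 1.51, and sums of 382 to 1106 and 1324 to 4301 CPM. In all 3 lists the sums did not overlap, although the fibroblast sum did without Col1a1, Col1a2 and Col3a1 (1122 to 1792 and 1715 to 2545 CPM), and the macrophage sum was highest in mouse 476, as was Pdgfra. Leaving out 1 mouse gave 2 to 4 fibroblast calls. Endothelial calls numbered 3 without DMSO mouse 482 or ABT-263 mouse 478, 4 without DMSO mouse 483 or ABT-263 mouse 476, and 5 to 7 otherwise. Macrophage calls numbered 1 without DMSO mouse 483, 3 without ABT-263 mouse 476 or 478, and 4 to 5 otherwise.

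The other lists had fewer calls. Of 11 mural cell markers, 2 were called higher (Mcam and Kcnj8), where 12.4% of all genes tested were, and 0 lower. The median was 0.18, and Cspg4 (-0.39), Des (-0.11) and Tagln (-0.01) had log2 fold changes below 0. The sums of 3887 to 7186 and 3792 to 6739 CPM overlapped. Most of each sum came from Des, which muscle fibres also express. Keratinocyte markers (4 genes, median 0.10) ran from 20468 to 50243 CPM in DMSO mice and from 17722 to 50212 CPM in ABT-263 mice, so the markers that define skin were abundant in every library. Their median turned negative without DMSO mouse 481 (-0.10), DMSO mouse 483 (-0.13) or ABT-263 mouse 477 (-0.32). By edgeR 0 of these 4 were called, 0 had an unadjusted p under 0.05, and the DESeq2 Wald test called 0.

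Platelet markers (5 genes, median 0.28, sums of 34.6 to 85.2 and 59.5 to 81.6 CPM) had 0 calls by edgeR, 2 higher at an unadjusted p under 0.05 and 1 call by DESeq2. Adipocyte markers (5 genes, median 0.80, sums of 574 to 1499 and 681 to 1877 CPM) had the same 3 counts. Hair follicle markers (7 of 9 tested, median -2.19) had 0 calls by edgeR and 1 lower at an unadjusted p under 0.05. DESeq2 gave an adjusted p to only 1 of these 7 genes and called it. The sum of these markers was 2391 CPM in DMSO mouse 481 against 29.2 to 35.6 CPM in the other DMSO mice. It was 3.61, 9.28 and 429 CPM in ABT-263 mice 476 to 478. The sign of the median fold change rested on mouse 481, since without it the median was 0.46. Its size also depended on ABT-263 mouse 478, without which the median was -7.10.

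Skeletal muscle and Schwann cell markers overlapped between the groups in their sums. Of the muscle markers 1 of 5 fell (Tnnc2), with a median of -0.46 and sums of 23187 to 49147 and 15684 to 24152 CPM. Of the Schwann cell markers 1 of 4 fell, with a median of -0.52 and sums of 108 to 199 and 100 to 113 CPM. Over all genes tested, 11.7% were called lower, so 1 call in lists this short says little. The part of these shifts in the levels of the PDGF genes was not tested.

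**Figure D5:**
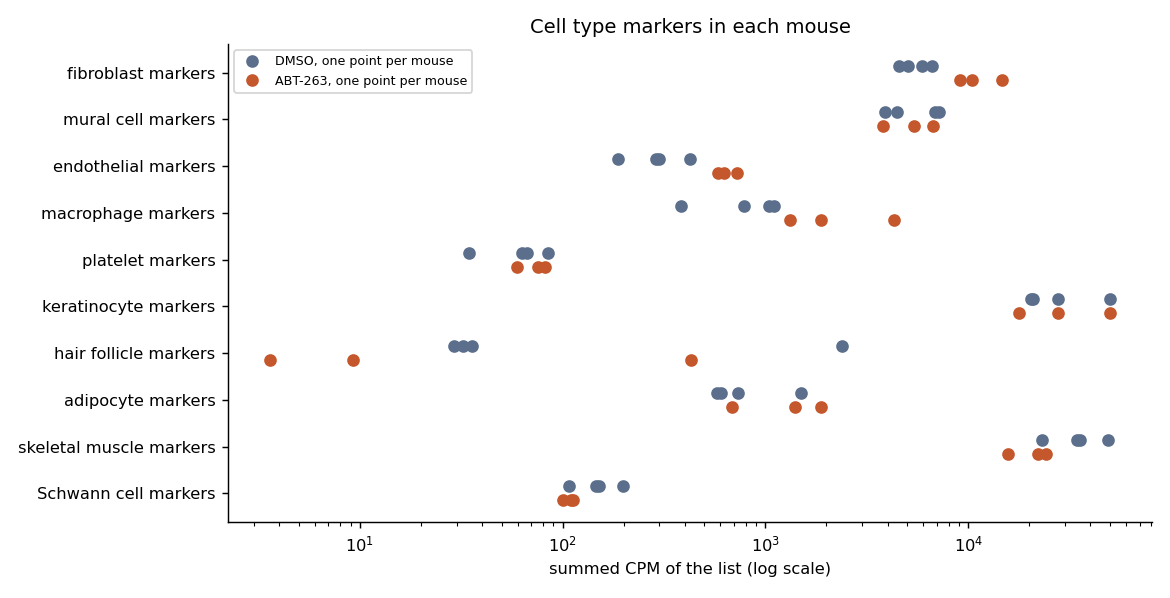
Summed CPM of each cell type marker list in each mouse, on a logarithmic axis, with 1 point per mouse. The fibroblast, endothelial and macrophage sums of all 3 ABT-263 mice lie above those of all DMSO mice, and the other 7 lists overlap.

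Member levels were also expressed per 1000 CPM of the marker list of a cell type known to express them, a scale added after the data had been seen and given without a test. Pdgfb per endothelial marker CPM was 97.4 to 189 in DMSO mice and 48.4 to 74.0 in ABT-263 mice, and per macrophage marker CPM 39.8 to 92.4 and 8.18 to 32.7. On both scales the groups lay apart. Pdgfb itself did not pass the test and overlapped between the groups, whereas neither marker sum overlapped. The separation thus came with the marker sums and is not a separate result on Pdgfb. Pdgfra per fibroblast marker CPM was 2.87 to 4.17 in DMSO mice and 3.48 to 10.3 in ABT-263 mice. Mouse 476 lay at 10.3 and mice 477 and 478 at 4.004 and 3.48, within the DMSO range. This overlap depended on the collagen genes that dominate the sum. Without Col3a1 the values were 3.18 to 4.53 in DMSO mice and 16.0, 5.23 and 5.48 in mice 476 to 478. Without Col1a1, Col1a2 and Col3a1 they were 11.6 to 13.8 and 42.2, 21.2 and 20.1, so the groups lay apart on both of these scales. Pdgfrb per mural marker CPM (5.75 to 13.4 and 11.8 to 15.4) and Pdgfa per keratinocyte marker CPM (1.92 to 5.54 and 1.38 to 3.78) overlapped between groups. The mural scale followed mainly Des, which muscle fibres also express, and it was not recomputed without that gene.

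Finally, each member's profile over the 7 mice was compared with those of all other tested protein-coding genes, by the root mean square difference of log2 CPM after centring each gene on its own mean. The profile nearest to Pdgfra was that of Osmr, which encodes the oncostatin M receptor, at a distance of 0.0493, followed by Tbkbp1 at 0.144. Osmr was measured at 12.7, 10.7, 12.2 and 16.1 CPM in DMSO mice and 68.0, 23.5 and 34.9 CPM in ABT-263 mice. The order of the 3 ABT-263 mice was that of Pdgfra, which the choice by smallest distance favours. Within 0.2 of Pdgfra lay 18 genes.

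Pdgfa lay closest to Osgep (0.0266) and Nudt3 (0.0406), and Pdgfb to Gpatch2 (0.0874) and Wtip (0.0879). The counts within 0.2 were 894 for Pdgfa and 1258 for Pdgfb. The distance is not scaled to the size of a profile's changes. Pdgfa lay at a root mean square distance of 0.377 from its own mean and Pdgfb at 0.176. A gene with no change between mice would thus lie within 0.2 of Pdgfb. Pdgfc lay closest to Nrbf2 (0.157) and Dennd4c (0.168), Pdgfd to Tmem184c (0.142) and Trappc8 (0.213), and Pdgfrb to Adap1 (0.141) and Tmem104 (0.144). Here the counts within 0.2 were 6, 1 and 25, for profiles at 0.699, 0.948 and 0.536 from their own means. The counts are therefore not comparable between members whose changes differ in size. Among the members themselves the closest pairs were Pdgfa with Pdgfb (0.343), Pdgfc with Pdgfd (0.432) and Pdgfra with Pdgfrb (0.543). These distances cannot be set against those of the nearest genes. A nearest gene is the closest of all tested protein-coding genes, whereas a member has few others in the family to be compared with.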

How the data were processed

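Reads had been mapped to mm10 by the authors with STAR 2.7.9a. Properly paired, uniquely mapped fragments were assigned to Ensembl genes by strand with featureCounts (Subread 1.6.2), without mitochondrial genes. The authors deposited the raw counts per gene, unfiltered, and a second table of log2-like values after the variance-stabilizing transformation of DESeq2 1.23.10. No per-sample column was left unused (0). The labels and the methods name different RNA extraction kits.

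Members, gene lists and alternatives were chosen with earlier results of these data known. GENCODE M21 supplied symbols, exon lengths and GC content and held 55190 of the 55450 identifiers. In R 4.3.3, edgeR 4.0.16 was run on the counts by quasi-likelihood (TMM, filterByExpr, robust estimation, two-sided, Benjamini-Hochberg adjustment over 17959 genes). Alternatives were the Wald test of DESeq2 1.42.0, its size factors, other filters (no minimum, protein-coding genes alone, or at least 10 counts in every sample), removal of exon length and GC trends with mgcv, limma 3.58.1 on the deposited log2-like values, and leaving out each mouse. The scripts were tested on 2 sets of simulated counts with 200 genes changed. At an adjusted p under 0.05 edgeR recovered 61.5% and 59.5% of the changed genes. Of its calls 8.89% and 7.03% were false, above the share that threshold allows for on average. With 2 simulations this does not settle whether the threshold is exceeded in general. The 200 changed genes were among 17621 and 17628 tested, against 4342 called in the data, so these shares may not carry over. Ratios used RPKM computed here with 0.5 added to the count. Named genes were the members, up to 3 called genes per direction of each pathway list by p, all genes of the activation and relatives lists, and 2 nearest profiles per member, except a few genes that are not reported here. Each library is a separate mouse. The labels name no batch. Promoter sequence came from RefSeq.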

Additional observations from a re-analysis of the deposited data

Results flagged for a closer look

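Dixon's ratio of gap to range was computed for 28 measures over the 4 DMSO mice and compared with its 95% critical value. Chance flags about 1 in 20, or 1.4 of 28, and 4 exceeded the value. None of them was the level of a PDGF ligand or receptor or a ratio between members. The summed hair follicle markers gave 0.997, with DMSO mouse 481 at 2391 CPM against 29.2 to 35.6 CPM in the others. The summed early response genes gave 0.918, with DMSO mouse 480 at 720 CPM against 491 to 510 CPM. For the type III receptor tyrosine kinase relatives the ratio was 0.897, with DMSO mouse 481 lowest at 140 CPM against 151 to 152 CPM. The summed adipocyte markers gave 0.833, with DMSO mouse 483 at 1499 CPM against 574 to 729 CPM. The ABT-263 group, with 3 mice, was not examined in this way.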

How the results depend on the processing

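No member fold change, ratio between members or pathway gene call changed direction under the alternatives run for it. The medians of 2 marker lists did when a mouse was left out: hair follicle markers went from -2.19 to 0.46 without DMSO mouse 481, and keratinocyte markers from 0.10 to between -0.32 and -0.10 without DMSO mouse 481 or 483 or ABT-263 mouse 477. Pdgfa, Pdgfd and Pdgfra kept their calls, and Pdgfb and Pdgfrb stayed uncalled, under all 7 alternatives that used every mouse. Pdgfc lost its call with length and GC trends removed (log2 fold change 0.98, adjusted p = 0.0609) and among protein-coding genes only (1.10, adjusted p = 0.0505). With no minimum count, 30645 genes were tested and 5 rather than 8 early response genes were called, and the cause of that drop was not tested. The DESeq2 Wald test gave -0.72, -0.14, 1.16, 1.77, 1.75 and 0.67 for Pdgfa, Pdgfb, Pdgfc, Pdgfd, Pdgfra and Pdgfrb. Over fits that left out 1 mouse, log2 fold changes ranged from -0.79 to -0.66 (Pdgfa), -0.23 to -0.07 (Pdgfb), 0.89 to 1.40 (Pdgfc), 1.57 to 2.04 (Pdgfd), 1.16 to 2.05 (Pdgfra) and 0.42 to 0.82 (Pdgfrb). Members called ranged from 2 (without ABT-263 mouse 478, where Pdgfc and Pdgfd were lost) to 4, activation genes from 3 to 7, transducers from 5 to 14, brakes from 2 to 5, early response genes from 2 to 6 and relatives from 1 (without DMSO mouse 483) to 2. Calls over all genes numbered 1735 to 4169 in those fits, against 4342 with every mouse. Each of those fits had 1 mouse fewer, and the cause of these losses was not tested. No paired analysis was possible because the groups share no replicate numbers. Depth limits Pdgfd most, at 17 counts in DMSO mouse 480.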
